A study of Caenorhabditis elegans with 2 samples.

Results

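Cohesin is a ring-shaped complex of SMC proteins that holds sister chromatids together and folds chromosomes into loops. HIM-1 is the SMC1 subunit of this ring in Caenorhabditis elegans. In divergent gene pairs the 5' ends of neighbouring genes on opposite strands face each other, so a single stretch of DNA carries the promoters of both genes. Many annotated 5' ends of worm genes are sites of trans-splicing, where a spliced leader replaces the start of the primary transcript, so the true start of transcription can lie further upstream.

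The divergent promoter sites described here were 428 entries of the pooled peak list of a ChIP-seq experiment, which sequences the DNA bound by an immunoprecipitated protein, here HIM-1-eGFP. Each overlapped an entry in the lists of both replicates by at least 1 bp and had a summit no more than 500 bp from 5' ends of protein-coding transcripts on both strands, of different genes. The pooled list held 12228 entries, peaks and background together, and 8371 of these overlapped both replicates' lists. The authors' optimal list, thresholded by the irreproducible discovery rate (IDR), held 166 of the 428 sites. That list took in every pooled entry from a signal value of 102 upwards, and the highest entry outside it had a signal of 101.9, so membership is a statement about pooled signal alone.

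The study comprised 1 group of 2 numbered biological replicates. Worms of strain YL576, a transgenic line with a C-terminal GFP-FLAG tag on HIM-1, were collected whole as L4/young adult hermaphrodites, 51 hours after starved L1 larvae from bleaching had been used to synchronize them. The free text of the labels names an anti-GFP antibody for the immunoprecipitation and the antibody field names him-1. All worms had the same genotype and treatment, and neither untagged nor GFP-only worms were analysed here.

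Because whole worms were used, the cell types that carried a site cannot be told apart, and no marker of a cell type is measured by a peak list. No test over samples could be made with 1 group, so sites were described by their values in the pooled list and in each replicate's own list. The signal value is the authors' own, and the sources used here do not give its scale or the read depth behind it. Groups of sites were therefore compared within a list. Values of both replicates at a site are given side by side, and a difference between them includes any difference between the lists.

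The DNA under the highest sites is shown first, as the pooled summit with 100 bases on either side, plus strand of ce11, from the RefSeq copy of the assembly. These are 3 of the highest sites on chromosomes II to V and X, at IV:654830-655030, IV:4750008-4750208 and V:14685681-14685881, and none of their bases lies in an annotated exon. Capitals mark the runs TAAATCGAC, CATACACTC and GCGCTCTA and the Sp1-like repeat CNCCNCC on either strand. The first 3 of these runs were picked after the sequences of the highest sites had been seen. Matches to the T block, TATA and CCAAT motifs are not marked.
rpl-15/K11H12.8: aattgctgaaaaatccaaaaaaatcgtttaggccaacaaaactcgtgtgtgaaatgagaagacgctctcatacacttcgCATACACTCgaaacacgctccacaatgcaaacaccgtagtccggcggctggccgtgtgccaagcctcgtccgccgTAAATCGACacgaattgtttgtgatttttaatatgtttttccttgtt
rpl-20/Y17G9B.5: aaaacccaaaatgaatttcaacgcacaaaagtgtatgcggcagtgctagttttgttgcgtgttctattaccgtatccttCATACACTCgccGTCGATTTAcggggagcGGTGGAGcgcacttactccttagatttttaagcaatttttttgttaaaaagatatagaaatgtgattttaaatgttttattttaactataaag
C47E8.4/hsp-90: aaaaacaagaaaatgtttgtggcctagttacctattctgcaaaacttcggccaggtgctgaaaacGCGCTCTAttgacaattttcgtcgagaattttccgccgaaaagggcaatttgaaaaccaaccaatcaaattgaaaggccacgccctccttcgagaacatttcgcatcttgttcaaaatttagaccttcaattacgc

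The run TAAATCGAC, read on either strand, was present at the 2 highest sites, beside the ribosomal protein genes rpl-15 and rpl-20. GCGCTCTA was present beside hsp-90, the gene of the Hsp90 chaperone. Over all sites, TAAATCGAC occurred at 17 of the 428 divergent promoter summits (3.97%), at 1.12% of the 2404 reproducible summits at promoters of 1 strand only (unidirectional promoter sites) and at 0.433% of the 5539 reproducible summits away from promoters. The name unidirectional means only that all 5' ends within 500 bp of the summit were on 1 strand. Some of these sites belong to head-to-head pairs whose other 5' end lies farther off. Of the genes in annotated head-to-head pairs, 838 had a promoter site of either kind and 709 a divergent one. It lay in 1.15% of the 1741 windows of the same length at the midpoints of annotated head-to-head gene pairs. GCGCTCTA occurred at 27 divergent promoter summits (6.31%), at 1.83% of unidirectional promoter summits, at 0.830% of summits away from promoters and in 1.38% of the pair midpoints. CATACACTC was found at 2 divergent promoter sites (0.467%), both printed above, and in 0.345% of the pair midpoints. It was at 3 unidirectional promoter summits (0.125%) and at 18 summits away from promoters (0.325%).

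Of the 32 divergent promoter sites with a cytosolic ribosomal protein gene, 7 held TAAATCGAC, among them those beside rpl-15, rpl-20, rpl-28, rpl-2, rpl-34 and rpl-17. Sites with GCGCTCTA included those of clsp-1/eef-2, pabp-2/C17E4.6, ify-1/rpl-22, vps-51/lin-35 and cdk-4/F18H3.1. Sites with TAAATCGAC had a median pooled signal of 97.7, against 88.1 at sites without it, but in the replicates' own lists their medians were lower than those of the other sites (47.7 against 50.7 in replicate 1, and 33.0 against 39.1 in replicate 2). Sites with GCGCTCTA had medians of 92.7, 60.7 and 47.6 in the pooled, replicate 1 and replicate 2 lists, against 88.1, 49.9 and 39.1 at sites without it. All 3 runs were chosen after the sequences had been seen, and the sites they were read from are among those counted.

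The other 3 sequences show the highest site with each of the motifs that were most frequent at optimal divergent promoter sites relative to all promoter sites, and a short stretch between facing genes. Capitals mark an E2F-like element at cct-8/Y55F3AR.2 (IV:1094256-1094456) and GAGACGCAG, present 2 times, at drr-2/set-16 (III:13643633-13643833). The third is the whole stretch between the 5' ends of ctf-4 and eef-1G (V:10965540-10965718), which was chosen after its values were seen because it is short enough to print entire. It held none of the motifs searched.
cct-8/Y55F3AR.2: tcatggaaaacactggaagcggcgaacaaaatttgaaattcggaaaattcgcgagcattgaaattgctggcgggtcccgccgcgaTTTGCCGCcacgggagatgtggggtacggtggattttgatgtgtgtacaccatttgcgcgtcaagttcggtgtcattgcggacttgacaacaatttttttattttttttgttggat
drr-2/set-16: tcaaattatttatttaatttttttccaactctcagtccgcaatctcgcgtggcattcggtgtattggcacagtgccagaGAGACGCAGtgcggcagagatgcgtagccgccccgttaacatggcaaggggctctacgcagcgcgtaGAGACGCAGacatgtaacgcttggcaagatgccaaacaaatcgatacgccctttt
ctf-4/eef-1G: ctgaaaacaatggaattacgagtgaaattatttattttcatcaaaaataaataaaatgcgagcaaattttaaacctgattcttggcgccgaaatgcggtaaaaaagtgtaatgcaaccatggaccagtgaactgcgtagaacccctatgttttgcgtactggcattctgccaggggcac

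Divergent promoter sites had higher signal values than other reproducible sites, in the pooled list and in both replicates. The optimal list held 166 of the 428 divergent promoter sites (38.8%, Wilson 95% interval 34.3 to 43.5), 24.8% of the 2404 unidirectional promoter sites (23.1 to 26.6) and 18.7% of the 5539 sites away from promoters (17.7 to 19.7). Over all 8371 reproducible entries the share was 21.5%, and over the whole pooled list it was 14.7%. The intervals cover counting error only. On autosomes alone the shares were 38.4% of 409 divergent promoter sites, 24.1% of 1950 unidirectional promoter sites and 17.9% of 4268 sites away from promoters.

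The median pooled signal was 88.4 at divergent promoter sites, 68.5 at unidirectional promoter sites and 63.4 away from promoters. In the replicate 1 list the medians were 50.7, 41.9 and 38.4 in the same order, and in the replicate 2 list they were 39.1, 31.1 and 28.1. The difference of the medians between divergent and unidirectional promoter sites was 0.37 on the log2 scale in the pooled list, 0.28 in replicate 1 and 0.33 in replicate 2. A larger share of the pooled entries at divergent promoters also had a counterpart in both replicates, 84.1% of 509, against 71.2% of 3376 at unidirectional promoters and 66.4% of 8343 away from promoters.

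Divergent promoter sites were also among the highest entries. They made up 3 of the 25 highest reproducible entries by pooled signal, 9 of the 100 highest and 41 of the 500 highest. Unidirectional promoter sites made up 4, 32 and 163 of the same entries, and sites away from promoters made up most of them, 18, 59 and 296. Over all 8371 reproducible entries, 428 were divergent promoter sites, 2404 unidirectional promoter sites and 5539 away from promoters. When the same reproducible entries were ranked by their value from each replicate's list, 9 of the 100 highest were divergent promoter sites in both replicates. Within the optimal list the median pooled signal was 140 at divergent and 146 at unidirectional promoter sites, a log2 difference of -0.060 (-0.072 in replicate 1 and -0.028 in replicate 2). Since that list is itself a limit on pooled signal, these medians describe the sites above the limit and do not measure the gap between the classes.

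**Figure D1:**
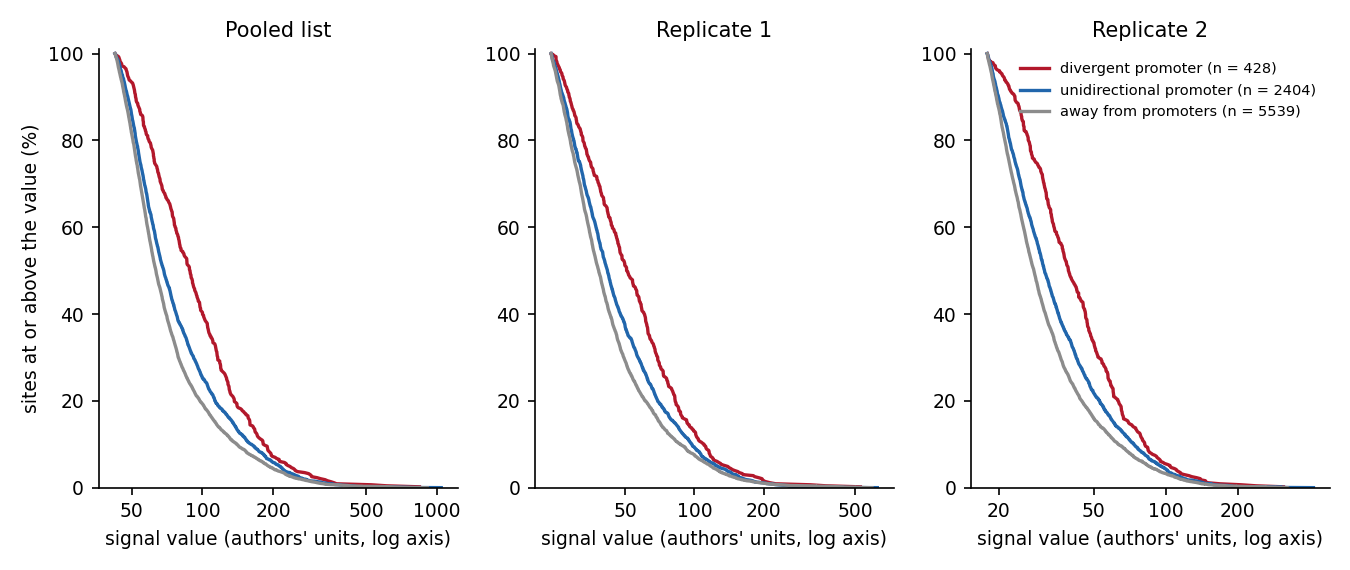
Share of reproducible sites (y axis, %) at or above each signal value (x axis, log scale, authors' units) in the pooled, replicate 1 and replicate 2 lists. The curve of the 428 divergent promoter sites runs right of the 2404 unidirectional promoter sites and the 5539 sites away from promoters over most of its course, with medians of 88.4, 68.5 and 63.4 in the pooled list.

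The highest divergent promoter site lay between rpl-15, a large-subunit ribosomal protein gene, and K11H12.8, with a signal of 842 in the pooled list, 527 in replicate 1 and 310 in replicate 2. The site between rpl-20 and Y17G9B.5 had 610, 373 and 238, and that between ska-3, a spindle and kinetochore gene, and the small-subunit gene rps-12 had 526, 320 and 207. These were the 3 highest divergent promoter sites in each of the 3 lists.

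The next highest had less than 400 in the pooled list. F56G4.6/wbp-4 had 373, 226 and 146, and C47E8.4/hsp-90 had 364, 198 and 168. The site between rps-19 and hsr-9, which encodes a homologue of the DNA damage protein 53BP1, had 353, 199 and 150. Chromatin and transcription factor genes stood among these strong sites as well. The site between drr-2, a homologue of translation factor eIF4H, and set-16, a histone H3 lysine 4 methyltransferase of the MLL family, had 341, 197 and 139. The site between malt-1 and ceh-38, a homeobox gene of the ONECUT class, had 334, 214 and 125.

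The remaining sites among the 20 highest had pooled signals of 239 to 319. Some lay between gmps-1 (GMP synthetase) and cap-2 (actin capping protein), and between the ribosomal protein genes rpl-12 and rps-23 and their partners lin-54 and dpm-3. The summit at cux-7/C07H6.2 lay 7 bp from the 5' end of cux-7, outside the stretch between the 5' ends. Elongation factor genes were there with eef-1G, facing the replisome gene ctf-4 (255, 146 and 111), and eef-2, facing the claspin homologue clsp-1 (249, 155 and 85.4). Others lay at the chaperonin genes cct-8 and cct-7, at ahsa-1, which encodes an activator of Hsp90, at the exocyst gene sec-15, at lin-53 with nra-2, and at rsr-1, which encodes an SR-related splicing protein.

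**Figure D2:**
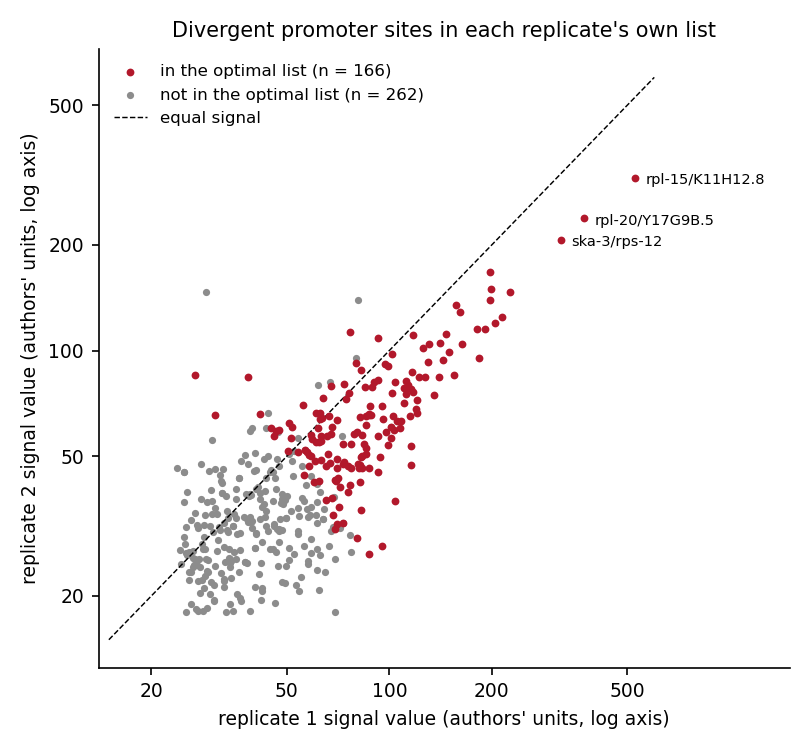
Signal value of each of the 428 divergent promoter sites in the replicate 1 list (x axis) and the replicate 2 list (y axis), both on log scales in the authors' units, with the 166 optimal sites in red. The sites rpl-15/K11H12.8, rpl-20/Y17G9B.5 and ska-3/rps-12 lie apart at the upper right, and 333 of the 428 sites lie below the line of equal signal.

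Replicates ranked the sites alike in broad terms. Across the 428 sites, which share libraries and a control and are not independent, Spearman's rho of the replicates' signals was 0.67 and Pearson's r of their log2 values was 0.74. Over the 166 optimal sites these were 0.57 and 0.67. Replicate 1 had the higher value at 333 sites, by a median factor of 1.32 over all 428, and the summits of both replicates lay a median of 38 bp apart (27 bp at optimal sites).

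At some optimal sites the replicates' values lay far from the median factor of 1.41 by which replicate 1 exceeded replicate 2 over the optimal sites. The site between dnc-1, a dynactin subunit, and lsm-7 had 26.8 in replicate 1 and 85.0 in replicate 2, and col-38/rpl-5 had 30.8 and 65.3 and F40F11.3/mig-38 had 38.3 and 84.3. In the other direction, tim-1/Y75B8A.23 had 95.05 and 27.7, T28D6.6/pen-2 had 87.4 and 26.3, and T26A8.4/pdtf-1 had 104 and 37.2. The threshold itself fell among values that differed little. Just inside were Y119C1A.1/lmd-2 (103.5), F31D4.2/fkb-6 (102.8) and col-38/rpl-5 (102.4), and just outside were hxk-2/cdk-9 (101.9), snx-3/rad-54.L (101.6) and ZK643.5/ZK643.2 (101.2).

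At nearly all sites the genes faced away from a shared stretch of DNA. At 424 of the 428 sites the nearest 5' ends were head to head, and at the other 4 the transcripts overlapped at their 5' ends. The distance between the facing 5' ends ranged from 12 to 915 bp, with a median of 381 bp and quartiles of 254 and 525 bp, and 8 sites had 5' ends of 3 or more genes within reach. The summit lay between the facing 5' ends at 358 of the 424 sites (84.4%, interval 80.7 to 87.6). The rule fixes part of this share, because a summit within 500 bp of both 5' ends must lie between them where they are more than 500 bp apart. Where the rule left some room outside, the summit lay between the 5' ends at 59.8% of the 102 sites with up to 250 bp between them. At the 195 sites with more, up to 500 bp, the share was 87.2%. The room that the rule leaves outside the 5' ends shrinks as they lie farther apart, so these shares cannot be compared with each other.

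Most summits lay at some distance from both 5' ends. The median distance was 120.5 bp to the nearer and 278 bp to the farther 5' end, and the median distance from the midpoint was 74.75 bp. Summits fell in coding sequence at 4.91% of divergent promoter sites, against 12.6% of unidirectional promoter sites. The rule fixes part of this difference, because a summit held between facing 5' ends lies outside the transcripts that start at them. The optimal sites with the shortest stretches were F32D8.14/F32D8.5 (12 bp between the 5' ends, signal 126), F25H9.6/F25H9.7 (15 bp, 212) and C01G10.10/C01G10.9 (89 bp, 165). Those with the longest were sqv-3/vha-1 (900 bp, 167), col-38/rpl-5 (839 bp, 102.4) and rpl-15/K11H12.8 (814 bp, 842), so both long and short stretches carried strong sites.

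Sites on stretches of 1 to 250 bp were in the optimal list less often, 28.4% of 102, than those on stretches of up to 500 bp (42.1% of 195), up to 750 bp (42.1% of 107) and up to 1000 bp (40.0% of 20). Their median pooled signals were 76.8, 89.7, 96.1 and 91.2 in the same order. These bins were not tested against each other.

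**Figure D3:**
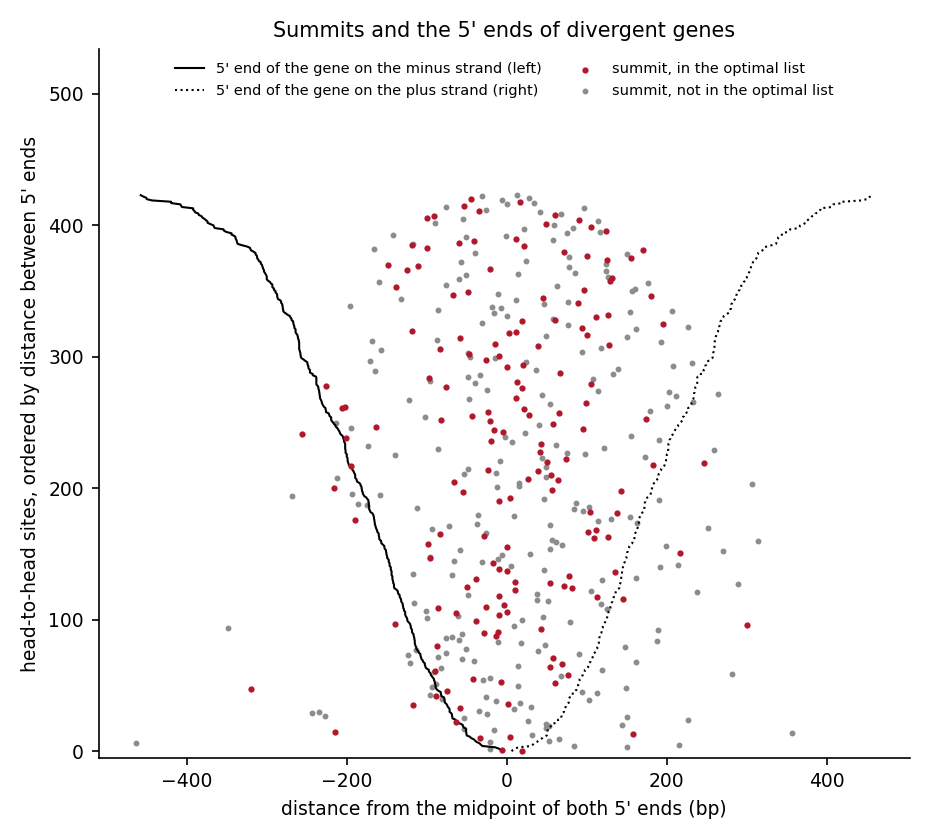
Position of the summit (x axis, bp from the midpoint of both 5' ends) at the 424 head-to-head sites, ordered from the shortest stretch at the bottom to the longest at the top (y axis), with the 5' ends drawn as lines. Of the 424 summits 358 lie between the lines. The rule allows none outside them where the 5' ends are more than 500 bp apart.

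Most annotated divergent pairs had no site. Of 1741 neighbouring protein-coding gene pairs whose 5' ends face each other at up to 1000 bp, 353 (20.3%, interval 18.5 to 22.2) had a divergent promoter site and 156 (8.96%) an optimal one. The share with a site was 22.8% of 372 pairs at 1 to 250 bp, 29.2% of 542 at up to 500 bp, 18.9% of 475 at up to 750 bp and 5.68% of 352 at up to 1000 bp. The rule itself lowers the last shares, since a summit must lie within 500 bp of both 5' ends.

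Counting promoter sites of either kind, 838 of the 3482 genes in such pairs (24.1%) had a reproducible site, against 11% of the 16503 other protein-coding genes and 13.3% of all. An optimal site was present at 370 of them (10.6%), against 3.20% of the other genes and 4.49% of all. A gene was counted through any site within 500 bp of its 5' ends, also a site shared with a neighbour. Genes in pairs always have a facing neighbour close by, and most genes outside pairs do not. Of the 752 genes with a divergent promoter site, 709 were in pairs. These shares are therefore not a like-for-like comparison.

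Few divergent promoter sites were on X. Of the 428 sites, 19 (4.44%) were on X, against 18.9% of unidirectional promoter sites and 22.9% of sites away from promoters. Annotated head-to-head pairs were also few there, 80 of 1741, and 16 of those 80 (20%, interval 12.7 to 30.05) had a site, against 337 of 1661 autosomal pairs (20.3%). On the autosomes the share of pairs with a site was 27.6% on III, 26.5% on I, 19.2% on IV, 17.9% on II and 13.1% on V. Of the 19 sites on X, 9 were optimal.

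The highest site on X was at sec-15/C28G1.2, with its summit 66 bp from the 5' end of C28G1.2 and outside the stretch between the 5' ends. It lay within 250 bp of a tRNA gene and had signals of 292 in the pooled list, 180 in replicate 1 and 115 in replicate 2. The next were dnj-14/glit-1 (194, 99.3 and 90.1), C27C12.1/C27C12.4 (168, 105 and 62.9), cdk-4/F18H3.1, at the gene of a G1 cyclin-dependent kinase (150, 85.4 and 65.1), and trap-2/ile-2 (146, 82.2 and 64.7). Each of these stood in the optimal list, and each was below the 10 highest sites of the autosomes.

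Non-coding RNA genes were rare beside divergent promoter sites. A tRNA, snoRNA or snRNA gene lay within 250 bp of 9 summits (2.10%), against 4.41% of unidirectional promoter summits and 7.10% of summits away from promoters. The 3 snoRNA genes were F54E7.10 beside rps-12, F39B2.14 beside rps-26 (signal 185) and C41C4.11 beside chst-1/C41C4.9 (114), and these 3 sites were optimal. The SL2 spliced leader RNA gene sls-2.8 lay beside both sites of tim-1/Y75B8A.23, so signal from it and from the divergent promoter cannot be told apart there.

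Among gene classes, cytosolic ribosomal protein genes had divergent promoter sites most often. Gene lists were made from gene symbols. Of all 19985 protein-coding genes 1.67% had an optimal divergent promoter site, and of the 3482 genes in head-to-head pairs 20.4% had any such site and 9.02% an optimal one. Of the 48 ribosomal protein genes in such pairs, 33 (68.8%) had a site and 20 (41.7%) an optimal one. Unidirectional promoter sites were present at these genes as well, at 28 of all 83 ribosomal protein genes, with optimal ones at 19. Over all 19985 protein-coding genes these counts were 1946 and 570. Besides those named above, rps-20/ekl-4 (signal 237), ify-1/rpl-22 (199), rpl-7A/set-21 (190) and tmem-107/rps-26 (185) were among the optimal sites, while rpl-26, rpl-34 and rpl-17 had signals of 51.4 to 54.4. At 3 sites both facing genes encode ribosomal proteins. These were rps-14/rpl-36 with 119 in the pooled list, 62.8 in replicate 1 and 57.2 in replicate 2, rps-10/rpl-24.1 with 95.4, 51.6 and 48.3, and rpl-39/rps-30 with 89.5, 46.2 and 43.2, and only the first of the 3 was optimal.

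At the other 29 ribosomal protein sites, the summit lay nearer the 5' end of the partner gene in 20 and nearer the ribosomal protein gene in 9. The median distance was 354 bp to the 5' end of the ribosomal protein gene and 197 bp to that of the partner. The count of ribosomal protein genes with an optimal site therefore depended on the window, and fell to 4 when summits had to lie within 250 bp of both 5' ends. The neighbours of these genes had varied roles, among them ska-3, hsr-9, lin-54, dpm-3, the securin gene ify-1 and the methyltransferase gene set-21.

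Chaperone genes and chromatin factor genes had optimal sites about as often. Of 36 chaperone genes in head-to-head pairs, 18 (50.0%) had a site and 15 (41.7%) an optimal one. Subunits of the CCT chaperonin, which folds actin and tubulin, accounted for 5 of the sites. They were cct-8/Y55F3AR.2 (308 pooled, 190 in replicate 1 and 115 in replicate 2), T10B5.4/cct-7 (248, 150 and 98.8), mig-5/cct-1 (227, 140 and 84.2), cct-5/F25F2.1 (181, 92.9 and 82.3) and cct-6/alh-9 (75.8, 42.1 and 35.8), and only the last was outside the optimal list. The Hsp110 gene hsp-110, facing the proteasome gene rpn-3, had 156, 95.7 and 63.7. The pair of stress-inducible small heat shock genes hsp-16.2/hsp-16.41, in which both facing genes are chaperones, had 65.9, 25.01 and 29.5 and was not optimal. At the 19 sites with a chaperone on 1 side, the summit was nearer the partner in 14.

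The chromatin list had 9 of 22 head-to-head genes with an optimal site (40.9%) and 11 with any. Its highest site after set-16 was that of lin-54, which encodes a DNA-binding subunit of the DREAM repressor complex, with rpl-12, which had signals of 288, 157 and 134 in the pooled, replicate 1 and replicate 2 lists. That of lin-53, the RbAp46/48 homologue, with nra-2 had 284, 183 and 94.95.

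Genes of cohesin and its regulators were themselves among the sites. The facing genes wapl-1, the factor that releases cohesin from chromatin, and htz-1, the H2A.Z variant, shared a site with 137 in the pooled list, 93.7 in replicate 1 and 49.6 in replicate 2. The site between mib-1 and smc-3, the SMC partner of HIM-1, had 132, 66.4 and 65.0 and was named after its values were seen. The symbol pattern for mitochondrial import also took tim-1, which encodes a Timeless homologue linked to cohesion in worms and no import protein, so that list is not counted here. Over the list of cell cycle, mitosis and cohesin genes, 4 of 39 in head-to-head pairs (10.3%) had an optimal site and 10 (25.6%) any site, close to all head-to-head genes. The highest of them was T10B5.3/knl-3, at a kinetochore gene, with 224, 130 and 93.0.

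Of the lists given next, most stood above the shares of all head-to-head genes, 20.4% with any site and 9.02% with an optimal one. For nuclear pore and transport genes, 14 of 22 (63.6%) had a site and 6 an optimal one, led by npp-3/top-2, a nucleoporin gene facing the topoisomerase II gene, with 192, 97.4 and 91.4. For translation factors the counts were 13 and 5 of 26, with eef-1A.1 facing the replication factor C gene rfc-4 at 213, 122 and 84.3. For respiratory chain and ATP synthase genes they were 16 and 9 of 34, led by mcrs-1/atp-1 (182, 121 and 66.6) and rbc-2/ndua-8 (182, 115 and 65.2). For vesicle transport they were 20 and 11 of 42, with the proton pump gene vha-8 at 231. Splicing factors had 12 and 6 of 26, with snr-3/rsp-5, an Sm protein gene facing an SR protein gene, at 106, 70.4 and 32.1. Mitochondrial ribosomal proteins had 9 and 4 of 25, and the site of emc-6 and mrpl-1 facing mrps-24, with such a gene on both strands, had 75.6, 48.4 and 30.8. RNA polymerase and general transcription factors had 5 and 2 of 12, and DNA replication and repair genes 9 and 3 of 28. RNA helicase, export and decay genes had 8 and 4 of 25, and aminoacyl-tRNA synthetases 3 and 2 of 11. Proteasome subunits had 6 and 1 of 20 (5.0% optimal) and ubiquitin conjugation genes 9 and 4 of 50 (8.0% optimal), below the optimal share of all head-to-head genes. With any site, proteasome subunits stood above the share of all (30%) and ubiquitin conjugation genes below it (18%). At ubc-22/ubc-21, where both genes are of the ubiquitin list, the values were 65.1, 42.05 and 19.4, and the site was not optimal.

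Against the same shares of 20.4% and 9.02%, 2 lists had no site. No gene of the histone list, with 62 in head-to-head pairs, and no major sperm protein gene of 13 had a divergent promoter site. The variant gene htz-1, which had one, was counted in the chromatin list. Of all 80 genes of the histone list, 6 had a unidirectional promoter site and 1 an optimal one. Of 102 chemoreceptor genes 3 had a site (2.94%) and 2 an optimal one (1.96%). Of 18 nuclear hormone receptor genes 1 had a site (5.56%), nhr-47 facing dnj-19, which was optimal with a signal of 159. Of 18 cuticle collagen genes 2 had a site (11.1%), col-71 with 129 and col-38 with 102.4, both optimal and so above the share of all head-to-head genes in the optimal list. Of 5 homeobox genes 1 had a site, ceh-38. Histone genes and major sperm protein genes exist in near-identical copies, and the sources used here do not say how reads that match several places were treated.

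**Figure D4:**
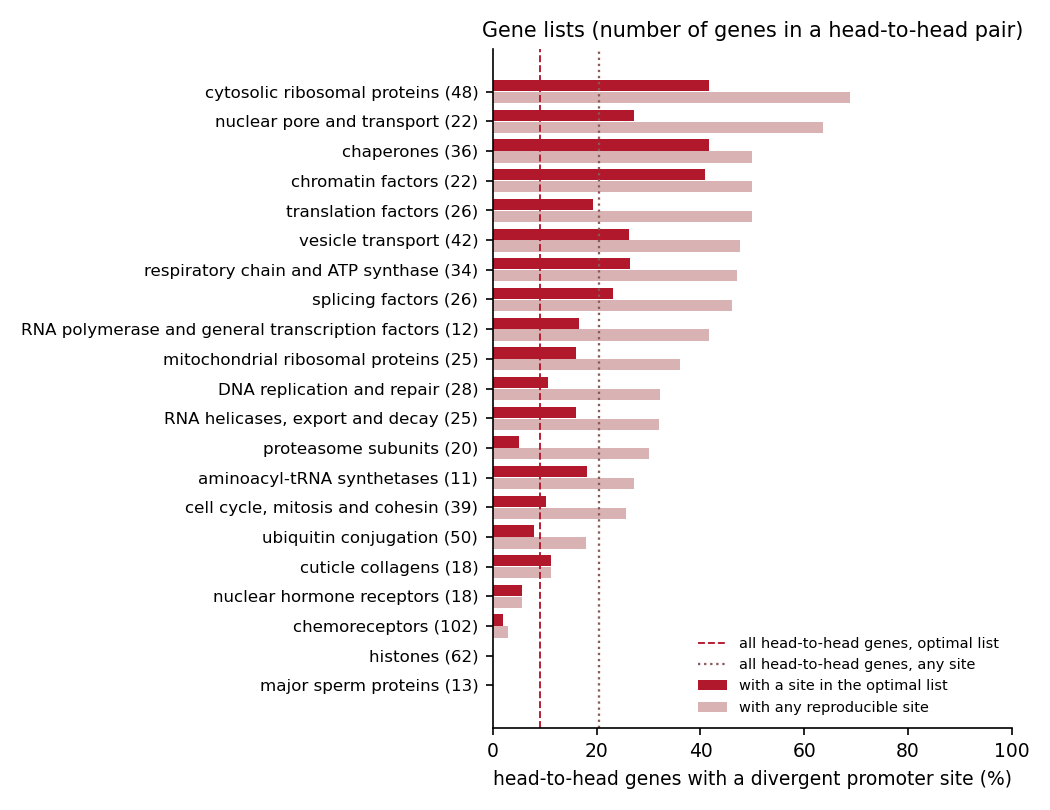
Share of the genes of each list that lie in an annotated head-to-head pair (number in brackets) and have an optimal (red) or any reproducible (pale) divergent promoter site (x axis, %), with lines for all head-to-head genes at 9.02% and 20.4%. Cytosolic ribosomal proteins, chaperones and chromatin factors have optimal sites at 41.7%, 41.7% and 40.9%, and the lists of histones and major sperm proteins have none. Lists with fewer than 10 such genes are left out.

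Divergent promoter sites of high GC content were in the optimal list more often than those of low GC content. The GC content within 100 bp of the summit had a median of 37.8% at divergent promoter sites, 39.8% at unidirectional promoter sites and 39.8% away from promoters, and 33.3% at the midpoints of annotated head-to-head pairs. At optimal sites the medians were 40.8%, 45.3% and 46.8% in the same order. With the divergent promoter sites ordered by GC content and split into 4 groups of 103 to 111 sites, the share in the optimal list was 20.6%, 26.1%, 49.5% and 59.8% from the lowest to the highest GC content. The median pooled signals of these groups were 72.6, 76.0, 102 and 116. The part of base composition in the signal was not tested.

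**Figure D5:**
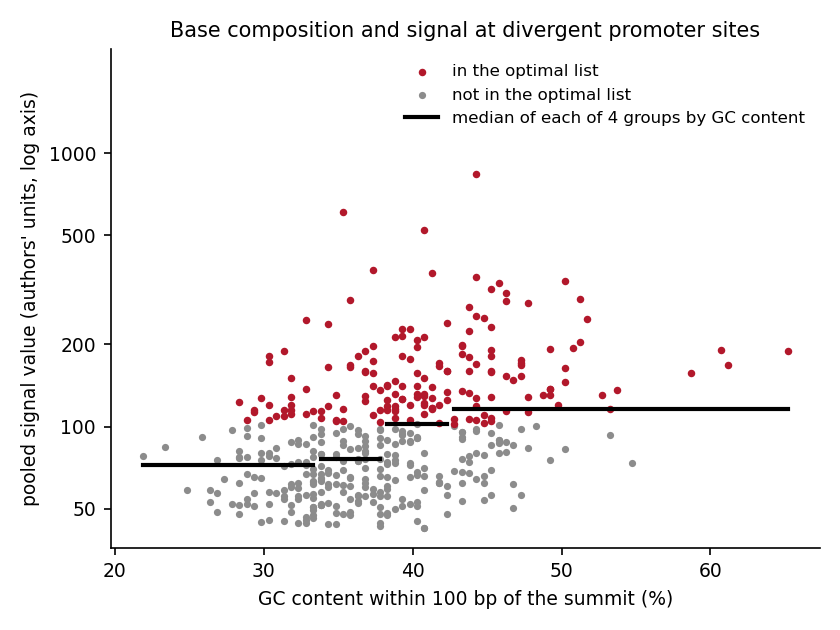
Pooled signal value (y axis, log scale, authors' units) against GC content within 100 bp of the summit (x axis, %) at the 428 divergent promoter sites, with optimal sites in red and black bars at the median of each of the 4 groups by GC content. The bars stand at 72.6, 76.0, 102 and 116 from the lowest to the highest GC content.

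Repeats of GA, common at other strong sites, were scarce at divergent promoters. The GAGA repeat (GAGAGAG) occurred at 6.02% of the 166 optimal divergent promoter sites, against 22.9% of 597 optimal unidirectional promoter sites and 25.3% of 1034 optimal sites away from promoters, and at 3.85% of pair midpoints. GAGACGCAG, whose first letters it shares, was at 7.23%, 12.4% and 12.9% of the same sites and at 2.41% of pair midpoints. It was more frequent among the stronger sites, with 12 of the 18 divergent promoter sites that held it in the optimal list. Their median pooled signal was 131, against 86.7 at sites without it (78.4 against 50.2 in replicate 1 and 46.9 against 38.6 in replicate 2). The E2F-like elements (TTTCGCGC, TTTCCCGC, TTTGGCGC or TTTGCCGC) were at 6.63%, 8.38% and 5.13% of optimal sites and at 4.88% of pair midpoints.

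Runs of 7 T or A (TTTTTTT on either strand) went the other way, at 38.0% of optimal divergent promoter sites, 28.0% of optimal unidirectional promoter sites and 26.4% of optimal sites away from promoters, and at 41.2% of pair midpoints. The Sp1-like repeat CNCCNCC was at 28.3%, 35.5% and 41.4% of the same optimal sites and at 16.6% of pair midpoints. Over all reproducible sites, optimal or not, GATA elements (TGATAA) were at 11.7% of divergent promoter sites and TATA elements (TATAAA) at 17.8%. The shares were close to these at unidirectional promoter sites (12.8% and 16.9%) and away from promoters (11.1% and 16.4%). In the pair midpoints they were 19.8% and 27.6%, so the lower shares were not particular to divergent promoter sites. Motifs were read on either strand of the same windows, and a match is a run of letters, not a measured binding site.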

How the data were processed

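ChIP-seq peak lists of 2 numbered biological replicates of 1 group were used, as deposited by the authors in ce11. Per the deposited text, each replicate's list and a pooled list held peaks and background as input to IDR, called against a control alignment, and the optimal list was thresholded by IDR. The signal value of each entry is the authors' own deposited value. The sources used here give no name or version of an aligner or peak caller, and no read depth. The lists in ce10 were not used here, and no coordinates were converted.

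Summits were set against protein-coding transcripts of Ensembl release 115 (WBcel235, the assembly of ce11), and sequence came from the RefSeq copy of that assembly, in which 99.9% of the 31805 Ensembl start codons read ATG. A replicate's value at a site is that of its entry with the longest overlap, or of the higher one where overlaps were equal. Entries can serve several sites, which touched 32 divergent promoter sites in replicate 1 and 60 in replicate 2. Python 3.11.15, NumPy 2.4.6, pandas 2.3.3, SciPy 1.17.1 and matplotlib 3.10.9 were used, and the sorting of summits into classes was tested on simulated data. Intervals of shares are Wilson 95% intervals. No p-values were computed.

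The sites, gene lists and motifs were chosen with earlier results of these data known. Named sites were drawn from the 20 highest, the 5 highest on X, up to 3 for each gene list, the 3 at either end of the distance between 5' ends, of the ratio between replicates and of the optimal threshold, and every site with both genes in the same list. Others were named after their values were seen. A pair is named with its minus-strand gene first. Chemoreceptor genes were counted and not named. Sequences were shown for the highest sites on chromosomes II to V and X, of which 1 is not reported here, and for the highest site with each of 2 motifs. Alternatives covered the window, the overlap, the annotation, each replicate, a stricter list, 1 site per pair, 1 5' end per gene and sites at non-coding RNA genes.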

Additional observations from a re-analysis of the deposited data

How the results depend on the processing

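Across 109 values under these alternatives, 84 stayed within 1.5 times for counts or within their spread for other values, and 25 moved. The spread was the Wilson interval for shares and the standard deviation between the replicates for medians. Only the log2 differences could change sign, and none of them did. With windows of 250 and 1000 bp there were 175 and 674 divergent promoter sites. At 250 bp the log2 difference in the optimal list was -0.022, the median GC content 37.3%, the share on X 2.86%, and 70 sites were optimal. At 1000 bp 22.3% of unidirectional promoter sites were optimal, 96.3% of divergent ones were head to head, and the median GC content was 38.3%. With an overlap of 50% of the pooled entry, 26.7% of unidirectional promoter sites were optimal. Leaving out each replicate in turn only dropped the need for an overlap with it and took values from the other replicate. The pooled entries and the optimal list, made from both replicates, stayed the same, with 166 optimal divergent promoter sites each time. The shares in the optimal list could therefore change only through the number of sites. They were 34.7% to 36.4% of divergent and 20.3% to 21.3% of unidirectional promoter sites. The log2 differences were 0.31 to 0.34 over all sites and -0.072 to -0.028 in the optimal list, and the median GC content was 37.8% to 38.3%. In the upper part of the optimal list by signal were 18.2% of divergent and 12.6% of unidirectional promoter sites. With 1 site per pair these shares in the optimal list were 44.4% and 29.3%, 88.0% of summits lay between the 5' ends, and the median GC content was 38.3%. The cause of these differences was not tested. The lists hold no reads, so depth could not be weighed, and both replicates were called against a control that was not used here. The count of ribosomal protein genes was not made with RefSeq annotation. No paired analysis was possible because there was 1 group.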

Other observations

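Second sites at the same gene pair lay at a nearly fixed distance. Of 372 gene pairs, 56 had 2 divergent promoter sites, and their summits were a median of 204 bp apart, within 250 bp at 52 pairs. The higher site of these pairs had a median pooled signal of 107 and the lower one 56.8, and at 1 pair (supr-1/dnj-28) both were optimal. At F56G4.6/wbp-4 the sites had signals of 373 and 56.7 and were 199 bp apart, at drr-2/set-16 they had 341 and 86.02 at 200 bp, and at malt-1/ceh-38 they had 334 and 64.6 at 204 bp. In the whole pooled list no neighbouring summits were closer than 199 bp, and 1014 neighbours were up to 220 bp apart, against 185 at over 220 and up to 240 bp. What sets this spacing was not tested.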
